A study of Mus musculus with 7 samples.

Results

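Of 39395 autosomal regions carrying an H3K4me2 call in common monocyte progenitors (cMoPs) of mouse bone marrow, 3668 (9.31%) were called in all 4 H3K4me2 libraries, lay within 1 kb of an end of a protein-coding gene, and also overlapped an H3K4me3 peak. They were chosen by those calls: the 4 H3K4me2 peak lists were merged on chromosomes 1 to 19, regions with a peak in every list were kept (11891), then those at a gene end (8004), then those sharing at least 1 bp with an H3K4me3 peak. The 3668 regions are therefore 30.8% of the regions called in all 4 lists and 45.8% of those at gene ends. The presence of both marks and the closeness to a gene are properties the choice fixed, and are described here, not tested.

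The progenitors were sorted from mice carrying variants of an enhancer 165 kb from Zeb2 (labelled -165-kb), a gene for a zinc-finger repressor that acts in monocyte and dendritic cell development. WT and DE are the submitters' genotype labels; the labels give neither what DE abbreviates nor what else the mice share. H3K4me2 was profiled in 2 WT and 2 DE libraries of sequencing batch 2 as labelled, and H3K4me3 in 1 WT library of batch 1, so that mark and batch cannot be told apart. Nothing in the labels says that replicates came from separate mice, so that p-values describe the spread among these libraries alone. The IgG control and the H3K4me3 library of another progenitor were not analysed here. The peak list of DE replicate 1 names DE-2 in its track line; the library was taken from the series record, and the genotype differences in mean rank and width are also given without each library. Counts and values of single regions by genotype are given with all 4 libraries only.

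The assay was CUTAC, in which an antibody tethers the cutting enzyme Tn5 to a histone mark and a low-salt reaction lets it cut open DNA beside the marked nucleosomes. A peak therefore reports open chromatin next to the mark. Methylation of lysine 4 on histone H3 is laid down by the SET1 and MLL enzyme complexes. The trimethyl form gathers at active promoters, above all those rich in CpG dinucleotides, where CXXC-domain proteins bring the enzymes to unmethylated DNA. The dimethyl form marks both promoters and enhancers. cMoPs are bone marrow progenitors that give rise to monocytes and still transcribe granule protease genes.

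The promoters of these regions ranged from CpG-rich to CpG-poor, and the sequences of 8 of them are shown because the results below turn on them. The first 3 are CpG-rich. Serbp1, which encodes an mRNA-binding protein, had the strongest H3K4me3 peak of these regions by -log10 p (chr6:67266729-67266978, plus strand). Hnrnpa2b1, a splicing and RNA transport factor, starts back to back with the heterochromatin protein gene Cbx3 (chr6:51469895-51470144, minus strand). Irf8 encodes a transcription factor required for monocyte and dendritic cell fate (chr8:120736108-120736357, plus strand). Each sequence is the 250 bases before the RefSeq start, from the start-site table of build GRCm38.p6, and capitals mark CpG dinucleotides.
Serbp1: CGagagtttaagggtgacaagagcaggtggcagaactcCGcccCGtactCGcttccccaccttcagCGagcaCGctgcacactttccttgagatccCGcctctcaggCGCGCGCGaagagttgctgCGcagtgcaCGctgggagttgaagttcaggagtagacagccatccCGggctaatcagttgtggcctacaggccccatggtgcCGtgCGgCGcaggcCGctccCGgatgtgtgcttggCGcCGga
Hnrnpa2b1: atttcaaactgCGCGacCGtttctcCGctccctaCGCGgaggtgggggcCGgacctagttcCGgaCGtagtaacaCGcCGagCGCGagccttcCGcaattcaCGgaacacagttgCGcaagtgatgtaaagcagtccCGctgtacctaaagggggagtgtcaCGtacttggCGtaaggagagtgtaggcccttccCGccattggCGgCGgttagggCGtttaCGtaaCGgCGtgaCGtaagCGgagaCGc
Irf8: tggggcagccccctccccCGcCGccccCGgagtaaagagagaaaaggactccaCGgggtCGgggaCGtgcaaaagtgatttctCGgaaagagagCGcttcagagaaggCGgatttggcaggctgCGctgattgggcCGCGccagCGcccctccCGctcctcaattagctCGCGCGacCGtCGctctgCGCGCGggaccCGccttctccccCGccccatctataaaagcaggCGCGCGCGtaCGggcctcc

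Counted over 300 bases (250 before the start and 50 after), these promoters held 24, 34 and 38 CpG. Their CpG observed-to-expected ratios, which set the CpG count against that expected from the C and G content, were 0.781, 1.28 and 1.03. The Serbp1 promoter held the ETS-type core CCGGAAG with its first base 5 bp before the start, and the YY1-type core AAGATGG, as its reverse complement, from 30 bp after it. The Irf8 promoter held a TATAAA match beginning 31 bp before the start beside 3 GC-box matches (GGGCGG).

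The other 5 promoters are CpG-poor and belong to genes of the granulocyte and monocyte programme. Elane encodes neutrophil elastase (chr10:79886062-79886311, plus strand), Prtn3 proteinase 3 (chr10:79879417-79879666, plus strand) and Ctsg cathepsin G (chr14:56102575-56102824, minus strand). Lyz2 encodes lysozyme (chr10:117282273-117282522, minus strand) and Ly6c2 a monocyte surface antigen (chr15:75111972-75112221, minus strand). Capitals mark the letters AGGAAGT or their reverse complement, a site type bound by the myeloid ETS factor PU.1.
Elane: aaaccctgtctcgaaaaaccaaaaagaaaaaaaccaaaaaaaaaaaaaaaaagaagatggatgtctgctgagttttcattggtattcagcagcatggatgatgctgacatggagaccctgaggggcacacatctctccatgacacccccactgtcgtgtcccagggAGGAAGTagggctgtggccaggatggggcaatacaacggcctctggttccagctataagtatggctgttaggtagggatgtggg
Prtn3: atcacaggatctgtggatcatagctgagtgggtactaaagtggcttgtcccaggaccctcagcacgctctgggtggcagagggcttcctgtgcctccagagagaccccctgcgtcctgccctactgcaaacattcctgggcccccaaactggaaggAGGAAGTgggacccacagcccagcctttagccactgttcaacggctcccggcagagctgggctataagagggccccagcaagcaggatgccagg
Ctsg: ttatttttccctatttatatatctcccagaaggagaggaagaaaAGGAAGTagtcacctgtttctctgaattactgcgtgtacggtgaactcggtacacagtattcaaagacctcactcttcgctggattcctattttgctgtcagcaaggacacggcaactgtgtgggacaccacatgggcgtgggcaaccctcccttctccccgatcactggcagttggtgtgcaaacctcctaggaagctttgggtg
Lyz2: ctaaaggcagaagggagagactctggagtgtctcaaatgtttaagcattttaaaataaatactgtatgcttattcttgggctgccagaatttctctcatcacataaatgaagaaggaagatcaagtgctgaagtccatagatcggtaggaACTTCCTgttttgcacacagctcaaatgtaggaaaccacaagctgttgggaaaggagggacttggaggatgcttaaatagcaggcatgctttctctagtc
Ly6c2: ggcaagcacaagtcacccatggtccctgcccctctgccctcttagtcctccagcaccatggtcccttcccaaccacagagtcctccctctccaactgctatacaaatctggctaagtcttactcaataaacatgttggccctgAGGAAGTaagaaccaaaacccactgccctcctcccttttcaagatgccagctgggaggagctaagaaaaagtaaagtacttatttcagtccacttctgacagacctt

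Over 300 bases these 5 promoters held 6, 4, 8, 1 and 0 CpG, with ratios of 0.314, 0.145, 0.464, 0.068 and 0. The AGGAAGT match began 84 bp before the start of Elane, 94 bp before that of Prtn3, 100 bp before that of Lyz2, 107 bp before that of Ly6c2 and 206 bp before that of Ctsg. In Elane, Prtn3, Lyz2 and Ly6c2 it lay inside the region called with both marks, and in Ctsg it lay outside. Ly6c2 held a second match from 27 bp after the start. At Elane the centre of the match was 21, 32, 39 and 30 bp from the strongest H3K4me2 summit, WT before DE and replicate 1 before 2. In that order it was 32, 57, 42 and 65 bp at Prtn3, 114, 65, 57 and 121 bp at Lyz2, 135, 65, 21 and 45 bp at the upstream match of Ly6c2, and 135, 176, 183 and 179 bp at Ctsg. Elane had the match close to the summit in every library, and Ctsg in none. A match of letters is a description and no evidence of a bound factor.

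The regions were compact, and H3K4me3 peaks covered fewer of their bases than H3K4me2 peaks did. The choice fixed part of this: H3K4me2 peaks set the edges of a region, and H3K4me3 bases were counted only inside them. Over all autosomal peaks the median H3K4me2 width was 153 and 212.5 bp in WT and 251 and 248 bp in DE. For H3K4me3 it was 167 bp, wider than in WT replicate 1. Their median width was 460.5 bp, from 130 to 2764 bp. H3K4me2 peaks covered a median of 289, 372, 387 and 337 bp of a region in WT replicates 1 and 2 and DE replicates 1 and 2, and H3K4me3 peaks covered 189 bp. H3K4me3 thus covered a median of 43.8% of a region, and at least 50% of it in 1469 regions. In 88 regions H3K4me3 peaks covered more than 500 bp of the region, and in 5 more than 1000 bp. The median fold enrichment given by the authors' peak caller was 9.48, 10.8, 7.21 and 6.19 for H3K4me2 in the same order, and 5.64 for H3K4me3 (2.12 to 22.4). Read totals are not in the files, so depth is unknown. The lists held 32354, 28152, 21968 and 17079 H3K4me2 peaks and 6425 H3K4me3 peaks, which limits what an absent call can show.

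The regions with most H3K4me3 bases included several genes of RNA processing and cell division control. Hnrnpul2, a nuclear ribonucleoprotein gene sharing its region with Ttc9c, had 1663 bp of H3K4me3. Tnpo2, a nuclear import receptor, had 1162 bp. Ash1l, a histone methyltransferase gene whose region it shares with Dap3, had 1084 bp, and Wee1, the kinase that holds CDK1 inactive, had 1002 bp. The region shared by Hnrnpa2b1 and Cbx3, whose CpG-rich promoter is printed above, had 847 bp.

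Ranked by the authors' -log10 p, the strongest H3K4me3 calls lay at Serbp1 (54.6), at the ribosomal protein gene Rps18 with Vps52 (54.5), at the PHD-finger gene Phf12 (53.2) and at Ino80d (52.0), which encodes a chromatin remodeller subunit. The region of Phf12 lay downstream of the listed start rather than over it. The ribosomal protein genes Rpl9, whose region is shared with Lias, and Rpl7a, shared with Med22, were also among the 10 strongest, at 49.9 and 47.6, as was the mitotic kinesin Kif11 at 49.9. Serbp1 had H3K4me2 fold enrichments of 11.7 and 10.1 in WT and 7.53 and 5.98 in DE, and an H3K4me3 fold enrichment of 15.1.

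H3K4me2 was stronger at these regions than at gene ends without an H3K4me3 overlap. To compare libraries, each region was given a percentile rank by -log10 p among the 11891 regions called in all 4 lists, 100 being the strongest. The mean rank of the 3668 regions was 60.7 and 62.9 in WT and 60.5 and 60.1 in DE. It was 45.4 and 44.7, and 44.5 and 45.2, for the 4336 gene-end regions called in all 4 lists that no H3K4me3 peak overlapped. The difference was 16.1 ± 1.5 (SD over 4 libraries) and had the same sign in 4 of 4 (exact sign-flip permutation test, two-sided p = 0.125, the smallest 4 libraries allow). The 959 regions away from gene ends that carried H3K4me3 ranked at 58.4 and 60.9 in WT and 61.7 and 61.4 in DE. Across the 3668 regions, which share libraries and are not replicates, the Spearman correlation of H3K4me3 fold with H3K4me2 fold was 0.35 and 0.49 for the WT libraries and 0.50 for both DE libraries. Between replicates of H3K4me2 it was 0.68 in WT and 0.77 in DE.

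The highest mean H3K4me2 ranks belonged to Zbtb7b, a zinc-finger transcription factor known from T cell lineage choice, at 99.9, and to the ribosomal protein gene Rps29 at 99.8. Their H3K4me3 was not the strongest: the fold enrichment was 6.33 at Zbtb7b and 3.84 at Rps29. At the other end stood several genes of the cell division machinery, with mean ranks of 2.62 for the region of Mcm7 (a subunit of the replicative helicase) and Ap4m1, 5.86 for the centrosomal gene Cep152 and 6.08 for the mitotic kinase Plk1. The Mcm7 region had H3K4me2 fold enrichments of 3.23 and 2.89 in WT and 2.76 and 2.38 in DE, and an H3K4me3 fold of 3.11.

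Almost all of these regions sat on the 5 prime side of a gene. The choice used either end of a gene, so which end it is was free to vary. Strand was known for 3086 regions, and 2985 of them (96.7%, Wilson 95% interval 96.0 to 97.3) lay within 1 kb of an annotated start, with 65 at a 3 prime end only. For gene-end regions without an H3K4me3 overlap the share was 93.1% (92.2 to 93.9), with 207 at a 3 prime end only. These intervals cover counting error over regions, not differences between libraries. Of all 3668 regions, 2806 (76.5%) lay over a gene end and 354 were more than 500 bp away from it. The regions nearest to the 1 kb limit were Ifngr2, the interferon gamma receptor chain, just inside it at 999 bp, with an H3K4me3 fold of 9.55, and the GTPase gene Rac1 just outside it at 1001 bp, with a fold of 3.92.

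Many regions lay near the starts of genes on both strands. Of the regions within 1 kb of a start, 579 (19.4%, 18 to 20.9) had starts on both strands within that distance. Among gene-end regions at a start without an H3K4me3 overlap, 270 (8.18%, 7.29 to 9.16) did. A start counted in this way need not lie inside the region. In 475 of the 579 the genes pointed away from each other, with a median of 162 bp between their starts. Such pairs, known as divergent or bidirectional promoters, included Hnrnpa2b1 and Cbx3, Rpl9 and Lias, and the polymerase subunit gene Polr2b and Noa1. Regions with starts on both strands were wider than those with starts on 1 strand (median 503 against 454 bp) and had more H3K4me3 bases (225 against 185 bp). Their H3K4me2 rank was higher in every library, at 62.5 and 66.4 in WT and 63.4 and 62.3 in DE, against 59.8, 62, 59.6 and 59.1 in the same order. By median fold the order was not the same: both strands against 1 strand gave 9.21 against 9.47 and 10.8 against 10.6 in WT, and 7.14 against 7.17 and 5.89 against 6.12 in DE, so that only WT replicate 2 was higher. The difference in rank was 3.53 ± 0.767 (SD, n = 4 libraries, exact sign-flip permutation p = 0.125). The letters CCGGAAG were found in 31.3% of the 1038 promoters at regions with starts on both strands and in 22.7% of the 2206 at regions with starts on 1 strand.

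Summits of both marks lay close to the start. In the 2406 regions with starts on 1 strand, the median distance from the start to the strongest H3K4me2 summit was -36 and -41 bp in WT and -40 and -37 bp in DE, negative values being upstream. The summit was upstream in 68.1% and 70.4% of regions in WT and in 68.4% and 67.2% in DE. The H3K4me3 summit lay closer, at a median of -19 bp, with 61.2% upstream and 65.0% within 100 bp of the start. For H3K4me2 57.2% to 59.4% were within 100 bp. Taken within the same region, the H3K4me3 summit was downstream of the H3K4me2 summit by a median of 10, 12.5, 12 and 12 bp in the same library order, and downstream in 61.8% to 66.5% of regions. This comparison sets 1 H3K4me3 library against 4 of the other mark from another batch.

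**Figure D1:**
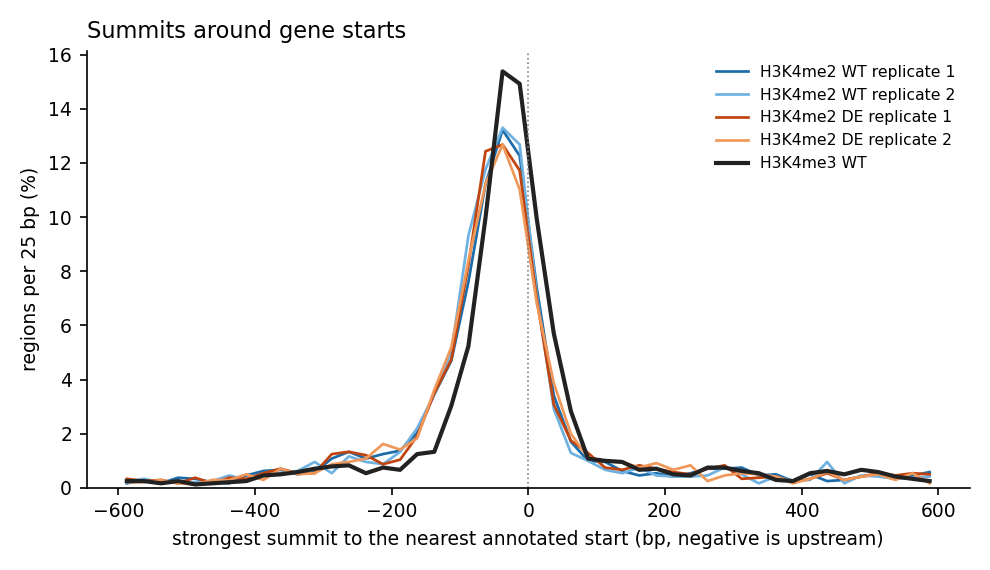
Share of regions (y axis, % per 25 bp) by the distance of the strongest summit from the nearest annotated start (x axis, bp, negative is upstream) for the 2406 regions with starts on 1 strand; each line is 1 library. All 5 curves peak within 100 bp upstream of the start, with medians of -36 to -41 bp for H3K4me2 and -19 bp for H3K4me3.

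Genes with such a region numbered 4104 of 20665 autosomal protein-coding genes (19.9%), the background for the counts below. A gene-end region in all 4 lists, with or without H3K4me3, was present at 38.6% of genes, and a region in any list at 53.8%. Between chromosomes the share ran from 14.8% on chromosome 6 to 27.7% on chromosome 19. Gene lists were compared with the background by count only. They were not tested, and they were chosen with earlier results of these data known.

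Genes that every dividing cell uses had the region at shares well above the background. It was present at 16 of 20 aminoacyl-tRNA synthetases, the enzymes that load amino acids onto tRNA, among them Nars with H3K4me2 ranks of 95.7 and 99.6 in WT and 99.8 and 98.7 in DE. Of 30 cell cycle and replication genes 22 had it, including the helicase subunit Mcm2 (92.8, 95.3, 92.3 and 97.6 in the same order), the kinase Cdk1 (78.1, 24.6, 46.2 and 66.3) and the proliferation antigen Mki67 (82.5, 80.7, 77.0 and 71.1). Mcm2 ranked high in all 4 libraries, whereas Cdk1 differed between the WT replicates by more than between genotypes. RNA polymerase II subunits and initiation factors had it at 18 of 27 genes, translation initiation factors at 18 of 27, proteasome subunits at 20 of 31 and splicing factors at 17 of 28. ATP synthase and cytochrome c oxidase genes had it at 13 of 24. These lists were CpG-rich: median CpG ratios over listed promoters ran from 0.712 (aminoacyl-tRNA synthetases) to 0.941 (polymerase II), against 0.597 over all promoters. Of all genes with a ratio of 0.75 and over 38.5% had the region, and of those between 0.5 and 0.75 24.1%. The part of CpG content in the list shares was not tested. Gaps within these complexes were also present: the largest polymerase subunit, Polr2a, was called in 3 of the 4 H3K4me2 lists, and Polr2c in none.

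Of 16 genes for enzymes that write and erase H3K4 methylation and for their partner subunits, 9 had the region. In 6 of the 9 it lay at the gene's own listed start. The regions of Kmt2b, Setd1b and Kdm5a were shared with Zbtb32, Rhof and Ccdc77, and at which end of these listed genes they lay is not known. Among the writers were Kmt2a, the MLL protein gene (H3K4me2 ranks 84.8 and 89.9 in WT, 94.8 and 93.2 in DE), Kmt2b, Kmt2c, Setd1a and Setd1b. The shared complex subunits Wdr5 and Rbbp5, the MLL cofactor Men1, and the demethylase Kdm5a completed the 9. By -log10 p Kmt2a ranked above 80 in every library. By fold, both marks at Kmt2a lay below the median of the 3668 regions in every library. For H3K4me2, WT replicate 1 had 7.53 against a median of 9.48, and WT replicate 2 had 7.41 against 10.8. DE replicate 1 had 6.30 against 7.21, and DE replicate 2 had 5.15 against 6.19. The H3K4me3 fold of 3.33 stood against 5.64. Cxxc1, the CpG-binding subunit of the SET1 complex, had H3K4me2 in all 4 lists and no H3K4me3 overlap.

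Stress and immediate early genes had the region at 13 of 21. Fos, the AP-1 subunit, ranked at 92.2 and 94.1 in WT and 96.2 and 97.7 in DE, and Gadd45b, a stress-induced regulator, at 95.4, 95.6, 97.9 and 99.0. Hspa5, the endoplasmic reticulum chaperone BiP, ranked at 82.7, 86.0, 94.7 and 93.0 with an H3K4me3 fold of 15.7. Both DE libraries ranked above both WT libraries at these 3 genes. In the whole list this held for 6 of the 13, and the reverse for 0, where 21% and 19.3% of all 11891 regions did so. Another 7 genes of the list, among them Jun, Egr1 and Atf3, were called for H3K4me2 in all 4 lists with no H3K4me3 overlap.

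Lineage transcription factors with H3K4me2 in all 4 lists were divided by H3K4me3 overlap. Of 30 myeloid transcription factors 10 had the region with H3K4me3 and 13 more had H3K4me2 in all 4 lists at a gene end without it. Over all 20665 autosomal protein-coding genes the numbers were 4104 and 3868, so a division of this kind is not particular to the list. The first group held Irf8, Cebpa and Cebpb (the C/EBP factors of granulocyte and monocyte development), Irf1, Klf4, Klf6, Myb, Elf1, and the E protein genes Tcf3 and Tcf12. The second held Spi1, which encodes PU.1, Zeb2 itself, Id2, Tcf4, Gfi1 and Klf2. Irf8 ranked at 86.4 and 90.9 in WT and 98.9 and 98.3 in DE, with H3K4me2 folds of 15, 25.7, 27.8 and 19.9 and an H3K4me3 fold of 19.3. Its rank was higher in both DE libraries, but its fold in DE replicate 2 was below that of WT replicate 2. Tcf3, which encodes E2A, ranked at 87.5 and 55.7 in WT and 29.4 and 32.7 in DE. These groups did not overlap either. With 2 libraries a genotype no single gene can reach p = 0.05, the smallest exact p being 0.333.

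The cell type label was checked against lineage genes. Monocyte and macrophage genes had the region at 9 of 26, with Csf1r (the M-CSF receptor), Ly6c2, Lyz2, Ms4a6c, F13a1, Csf2rb, Tyrobp and Fcer1g among them. Csf1r ranked at 44.8 and 66.0 in WT and 90.3 and 72.7 in DE. Granule genes had it at 4 of 18, namely Mpo (myeloperoxidase), Elane, Prtn3 and Ctsg, all primary granule proteins. Genes of later neutrophil stages, such as Camp, Ngp and Mmp8, had no gene-end call. Fcgr1 and Adgre1, which encode receptors of mature monocytes and macrophages, and Ccr2 had none either. B and T cell genes had the region at 0 of 22, natural killer and innate lymphoid genes at 0 of 12 and erythroid, megakaryocyte and mast cell genes at 0 of 18 on the autosomes. Dendritic cell genes had it at 1 of 18 (Xcr1, in a region at its 3 prime end shared with Fyco1), stem and early progenitor genes at 2 of 20 (Lyl1 and Etv6) and liver, nerve and muscle genes at 1 of 30 (Apoa2, shared with Tomm40l). Against the background of 19.9%, the monocyte list stood higher, the granule list close to it, and the lists of other lineages lower. Most of these lists were CpG-poor, and presence went with CpG content (below). Median CpG ratios over all listed promoters were 0.228 (monocyte), 0.156 (granule), 0.301 (B and T), 0.203 (natural killer) and 0.188 (erythroid). They were 0.275 (dendritic), 0.291 (liver, nerve, muscle) and 0.621 (stem), against 0.597 over all promoters. Genes under 0.25 had the region at 2.08%, those between 0.25 and 0.5 at 7.80%. The part of CpG content in these shares was not tested. Ccr2, which monocytes carry, lacked a call in every list.

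**Figure D2:**
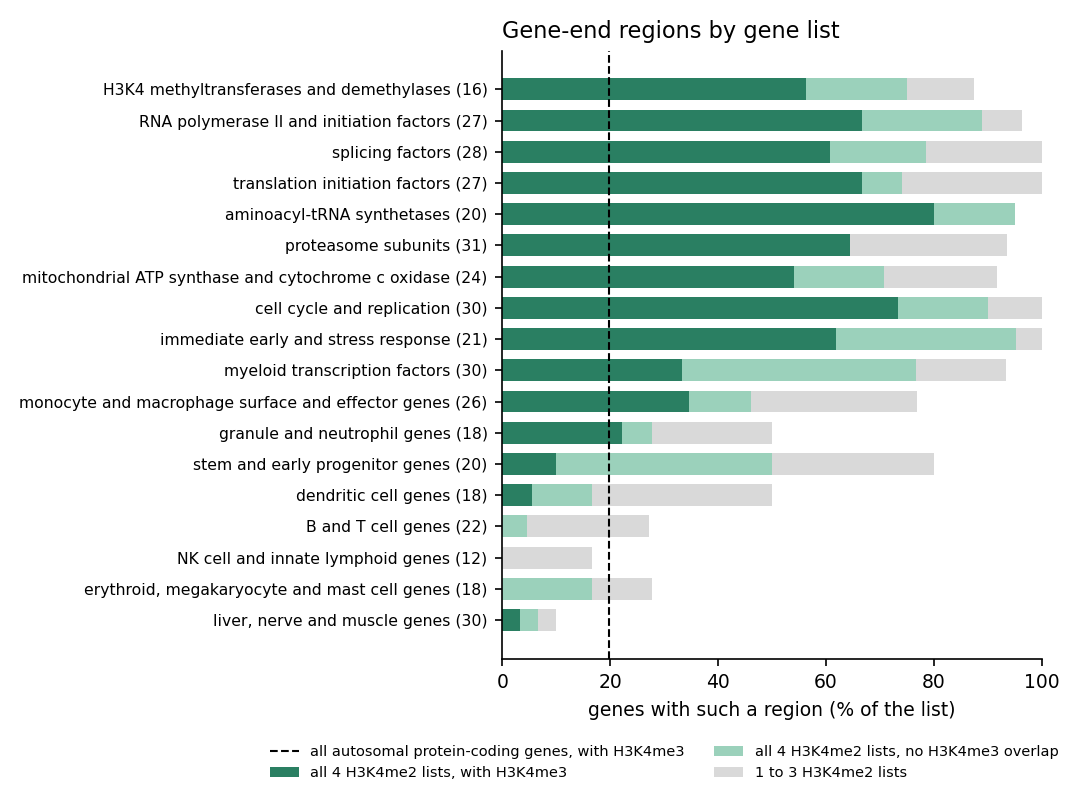
Share of the autosomal genes of each list (x axis, %; list size in brackets) with a gene-end region in all 4 H3K4me2 lists and H3K4me3 (dark), in all 4 lists without H3K4me3 overlap (light) or only regions that are each in 1 to 3 lists (grey); the dashed line is the dark share over all genes, 19.9%. The housekeeping lists reach 13 of 24 to 16 of 20 genes, and the B and T cell list 0 of 22.

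The promoters of these genes were rich in CpG. Sequences were available for 3378 of the 4104 genes (82.3%). Their median CpG observed-to-expected ratio was 0.835, against 0.765 for genes with a constant gene-end region but no H3K4me3 overlap, 0.706 for genes whose gene-end regions were each called in 1 to 3 lists, 0.238 for the 7471 promoters of genes with no call and 0.597 for all 16457 promoters. GC content was 62% against 56.7% over all promoters. Split by that ratio, at limits chosen after the values were seen, 92 of 4420 genes under 0.25 (2.08%) had the region, 215 of 2756 between 0.25 and 0.5 (7.80%), 841 of 3483 between 0.5 and 0.75 (24.1%) and 2230 of 5798 at 0.75 and over (38.5%). A region at either end of the gene was counted, so part of the regions in the low classes lay away from the promoter. Presence of the region thus went with CpG content, but its strength hardly did. Across the promoters of genes with a region, the Spearman correlation of the CpG ratio was 0.019 with H3K4me3 fold and -0.087 with H3K4me2 rank. The median H3K4me3 fold was 5.92 in the lowest class and 5.62 in the highest.

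**Figure D3:**
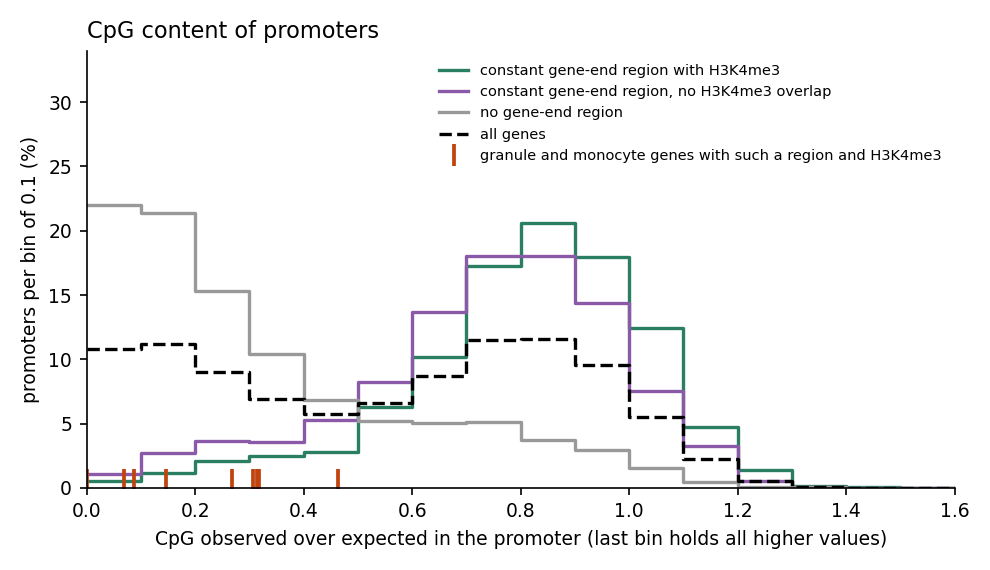
Share of promoters (y axis, % per bin of 0.1) by CpG observed-to-expected ratio (x axis) for genes with a constant gene-end region with H3K4me3, with such a region and no H3K4me3 overlap, with no gene-end region, and for all genes; red ticks are the 9 granule and monocyte genes with the region and a promoter sequence. The first set has its median at 0.835 and the genes without a region at 0.238, while the 9 ticks all lie under 0.5.

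The 92 genes with a CpG-poor promoter were a small and mixed group. They included the myeloid genes Ly6c2, Lyz2 and Mpo, the sphingosine phosphate receptor gene S1pr4, Lpar6, a receptor for lysophosphatidic acid, and Myo1g, a myosin of blood cells. A region at either end of a gene was counted, so it need not lie at the CpG-poor promoter. With a ratio under 0.1, 19 genes had the region, and 12 had it within 1 kb of an annotated start. From 0.1 to 0.2 the numbers were 39 and 19. Myo1g ranked at 99.4 and 98.6 in WT and 97.1 and 96.6 in DE with an H3K4me3 fold of 21.2, where the highest of all these regions was 22.4. Rbm25 (a splicing regulator) and Hmox2 (a heme oxygenase) had 0 CpG in the listed promoter. Monocyte and granule genes with the region had median CpG ratios of 0.269 (5 promoters) and 0.229 (4 promoters), whereas myeloid transcription factors with it had 1.00 (10 promoters). AGGAAGT was present in 4 of 4 of these granule promoters and 3 of 5 of the monocyte promoters, and GGGCGG in 0 of 4 and 0 of 5. Among all promoters with a CpG ratio under 0.25, AGGAAGT was present in 13.1% and GGGCGG in 6.83%, against 9.27% and 47.3% of all promoters. In the 92 genes of that class with the region the shares were 17.4% and 15.2%. Over every listed granule and monocyte gene with a promoter sequence, marked or not, AGGAAGT was present in 9 of 17 and 7 of 19. It was also present in 7 of 16 listed B and T cell promoters, which had no such region.

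At Mpo the called region lay downstream of the listed start, so its promoter sequence is not shown. Mpo ranked low in H3K4me2, at 17.1 and 37.2 in WT and 1.5 and 22.9 in DE, although H3K4me3 covered 401 bp there. Elane ranked at 55.3 and 72.6 in WT and 88.3 and 88.7 in DE, Prtn3 at 62.2, 84.6, 65.8 and 82.1, and Ctsg at 65.4, 78.7, 80.9 and 88.1. The genotypes overlapped at Mpo and Prtn3 and did not at Elane and Ctsg. Lyz2 ranked at 34.1 and 64.6 in WT and 21.3 and 70.1 in DE, and Ly6c2 at 51.2, 46.2, 27.8 and 84.2. In both genes the DE replicates lay farther apart than the WT replicates and enclosed them.

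Motif content was compared by the share of promoters with a match on either strand in the 300 bases. Each motif was counted by itself, and matches of different motifs may share bases. CCGGAAG was present in 25% of promoters with the region, 15.9% of those with H3K4me2 in all 4 lists and no H3K4me3 overlap, 3.84% of those without a call and 12.3% of all. Restricted to regions of a single gene the first share was 21.3%. AAGATGG was present in 9.47%, 4.87%, 5.50% and 6.40% in the same order, and the NRF1-type core GCATGCG in 8.26%, 6.16%, 1.86% and 4.59%. The GC box GGGCGG, bound by SP and KLF factors, was present in 69.4% with and 69.7% without H3K4me3 overlap, and in 24.1% without a call. TATAAA showed the opposite order, at 5.51%, 6.32%, 21.9% and 13.5%. CCAAT, bound by NF-Y, hardly varied (39.8%, 39.3%, 39.1% and 39.1%). The E-box CAGGTG, bound by ZEB proteins and E proteins, was present in 14.5% of promoters with the region and 19.6% of all. No test was made of these shares, and the sets differ in base composition as given above.

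The ETS-type and YY1-type letters were most frequent near the start, and occurred elsewhere in the promoter too. In promoters with the region CCGGAAG was most frequent in the 25 bp before the start, present there in 6.2%, and in the 25 bp after it in 5.6%, against 2.9% and 2.8% of all promoters. AAGATGG was concentrated downstream, with 2.4% and 2.0% in the first and second 25 bp after the start against 1.3% and 1.1% of all promoters. At Serbp1 CCGGAAG crosses the start, so that its last bases lie past the printed sequence, and AAGATGG lies wholly past it.

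**Figure D4:**
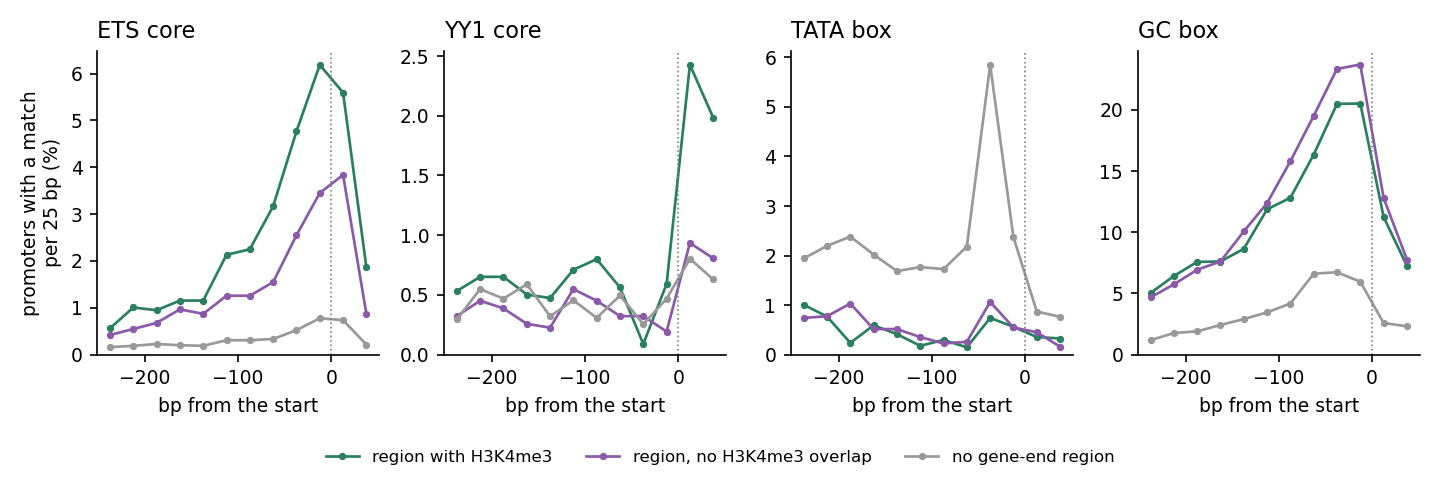
Share of promoters with a match per 25 bp (y axis, %) by position from the start (x axis, bp) for 4 motifs, in promoters of genes with a constant gene-end region with H3K4me3 (green), with such a region and no H3K4me3 overlap (purple) and with no gene-end region (grey); the y axes differ. The ETS core peaks just before the start at 6.2% in the green set and the YY1 core just after it at 2.4%.

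In mean rank the genotypes differed little over the 3668 regions as a whole. Ranks were taken within each library, so their mean over all 11891 regions is the same in every library. A mean rank therefore cannot show a change shared by all 11891 regions. The median fold of the 3668 regions was 9.48 and 10.8 in WT and 7.21 and 6.19 in DE. Over all 11891 regions it was 7.98 and 9.17, and 6.51 and 5.59. Depth is unknown, and the cause of this difference in fold was not tested. The mean H3K4me2 rank was 61.8 ± 1.57 in WT and 60.3 ± 0.307 in DE (SD, n = 2 each), a DE-WT difference of -1.48 (exact permutation test, two-sided p = 0.333, the smallest 2 against 2 can give). Ranked by fold enrichment in place of -log10 p, the WT libraries stood at 59.8 and 58.7, the DE libraries at 55.7 and 55.1, and the difference was -3.85 (exact p = 0.333), which is larger by more than 1.5 times. Leaving out 1 library at a time moved the difference by -log10 p to between -2.87 and -0.416, the smallest being without WT replicate 2. The same difference was -0.164 (exact p = 0.667) for gene-end regions without an H3K4me3 overlap and 1.91 (exact p = 0.333) for regions with H3K4me3 away from gene ends. Width did not separate the genotypes: the mean log2 of covered bases was 8.16 and 8.56 for WT, 8.59 and 8.39 for DE. The DE to WT ratio was 1.10 (exact p = 0.667), and the direction turned without WT replicate 1 (-0.07 on the log2 scale). A p above the threshold does not show that the genotypes were alike.

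**Figure D5:**
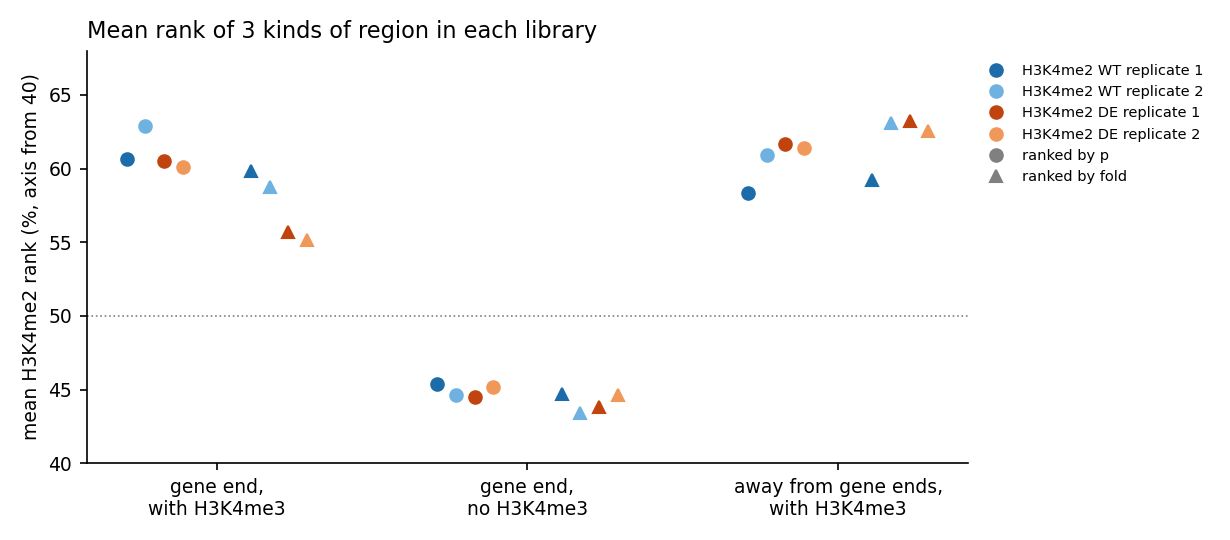
Mean H3K4me2 rank (y axis, %, starting at 40) of 3 kinds of region called in all 4 lists, with a point for each library; circles rank by -log10 p and triangles by fold. At gene ends with H3K4me3 the WT points are 60.7 and 62.9 and the DE points 60.5 and 60.1 by p, and by fold the genotypes lie farther apart.

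Among single regions 650 of 3668 (17.7%) ranked higher in both DE libraries than in both WT libraries, against 21% of all 11891 regions. In the other direction 779 (21.2%) ranked lower, against 19.3%. By covered bases 836 (22.8%) were wider in both DE libraries, against 21.9%, and 497 (13.5%) narrower, against 15.3%. All 4 shares were near the background and are no result about these regions. The change in rank ran from -22.8 at the 10th percentile to 18.9 at the 90th, with a median of -0.78.

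The regions with the largest change in rank are given as values. Sos2, which encodes an activator of RAS, ranked at 10.7 and 25.9 in WT and 80.7 and 84.6 in DE, with folds of 4.95 and 9.20, and 13.1 and 11.7. The region of Rprd1b, a regulator of RNA polymerase II, and Tti1 ranked at 11 and 28.2, and 86.0 and 70.9. Tifab, a gene of innate immune signalling, ranked at 14.7 and 46.8, and 77.4 and 89.9, and Arid1b, a BAF chromatin remodelling subunit, at 32.0 and 5.37, and 67.8 and 70.1. All 4 separated the genotypes, as the choice required.

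In the other direction the ribosomal protein gene Rpl7 ranked at 79.7 and 42.2 in WT and 1.40 and 0.618 in DE, with folds of 13.4 and 9.74, and 3.87 and 3.40. The proteasome subunit gene Psmd2 ranked at 88.7 and 76.4, and 14.1 and 35.1. The RNA-binding protein gene Tia1 ranked at 74.4 and 68.7, and 16.3 and 21.9. A further region of Prtn3, away from its start, ranked at 91.5 and 70.8, and 1.05 and 63.5, while the region over its start did not separate the genotypes. In Rpl7 the WT replicates lay far from each other and the DE replicates close together.

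By gene list the median change in rank was small beside these values. It was 6.67 for the H3K4 methylation enzymes and partner subunits (4 of 9 higher and 1 lower in both DE libraries). The stress list had 3.82 (6 and 0 of 13) and proteasome subunits 3.50 (6 and 2 of 20). The median change was -7.73 for polymerase II and initiation factors (2 and 6 of 18) and -4.71 for translation initiation factors (1 and 6 of 18). For myeloid transcription factors it was -2.71 (4 and 3 of 10), and for monocyte genes -0.72 (2 and 3 of 9). Over all 3668 regions the median was -0.78. Of all 11891 regions 21% were higher and 19.3% lower in both DE libraries. No list was tested, and the lists hold few genes.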

How the data were processed

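Peak lists of 4 H3K4me2 libraries and 1 H3K4me3 library of cMoPs were used. Per the submitters' processing notes, reads were trimmed with Trimmomatic, aligned to mm10 with Bowtie2, handled with SAMtools and Picard, and peaks called with MACS2 2.2.9.1. The deposited lists give a display score, a fold enrichment (ratio), -log10 p and -log10 q values and a summit offset per peak, as the authors' caller wrote them; peaks were called per library. The lowest -log10 q was 1.00 to 1.02.

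Here, peaks were merged and tied to RefSeq protein-coding genes (GRCm38.p6); strand and promoter sequences came from the RefSeq table, for 16457 of 20665 autosomal genes (79.6%). Percentile ranks were taken among regions in all 4 lists. Genotypes were compared by exact permutation over 4 libraries, with purpose-written code (numpy 2.4.6). Wilson intervals were computed with scipy 1.17.1. The region code was tested on simulated lists. Named regions were the 10 highest or lowest in each measure and up to 8 genes a list; other named list genes were chosen after their values were seen. The regions, lists and motifs were chosen with earlier results of these data known. Replicate numbers did not pair the libraries: the correlation of replicate differences between genotypes was -0.024. Alternatives were a stricter q, merging within 500 bp, other gene limits, 50% overlap, lists of equal length and leaving out each library. Some regions that the naming rule picks are not reported here.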

Additional observations from a re-analysis of the deposited data

Results flagged for a closer look

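The X and Y chromosomes were left out of the comparisons above. There, 60 regions met the same conditions, all on X, a signal in data the comparisons do not use. They lay at 68 of 966 X-linked protein-coding genes (7.04%), against 19.9% of autosomal genes, and at 0 of 256 on Y. Among them were the housekeeping genes Rpl39, with an H3K4me3 fold of 17, Rps4x (11.1) and Rpl10 (6.02), and the H3K4 demethylase gene Kdm5c, which had 2 regions (7.33 and 5.45). H3K4me2 at Rpl39 had folds of 14.1 and 12.9 in WT and 10.1 and 8.73 in DE.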

How the results depend on the processing

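The number of regions was 1676 when every peak needed a -log10 q of at least 5, and 1469 when H3K4me3 had to cover 50% of the region. Other settings gave 3283 to 4003, and leaving out 1 library 3685 to 3989. Genes with the region numbered 2066 at the stricter q, and 4103 to 4319 without 1 library, an alternative added after the data were seen. The genotype difference in rank kept its sign in every alternative (-3.85 to -0.416). With lists of equal length it was -0.516, against -1.48, and the mean ranks of the libraries no longer separated by genotype. The genotype difference in width (0.13, log2) ranged from -0.0656 to 0.334 without 1 library, and its sign turned without WT replicate 1 (-0.07). The share at a start was 96.5% to 96.7% without 1 library. Using the summit nearest to the start moved the mean of the library medians from -38.5 to -33.5 bp; the cause was not tested. With the replicate number as a block the rank difference stayed -1.48 (exact p = 0.5, the smallest 2 pairs allow) and the width difference 0.13 (exact p = 1); the labels share only the number, and it changed no call. Of the counts by gene list and the motif shares under all alternatives, 122 stayed within 1.5 times the count (lists) or within the 95% Wilson interval of the share (motifs), and 16 moved beyond. Without read totals, an absent call cannot be told from low depth.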
